A study of Mus musculus with 9 samples.

Results

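Collagen chain genes were examined in mouse ear skin after delivery of interleukin 23 (IL-23), a cytokine of psoriasis-like inflammation. The members were the protein-coding genes whose symbol names a collagen chain (Col, a number, a, a number) and whose raw counts summed to at least 10 over the 9 libraries. This rule kept 40 of 44 genes with such a symbol, among 54838 genes in the count tables. Just inside the minimum were Col24a1 with 10 counts and Col20a1 with 11. Just outside it were Col19a1 with 5 counts, Col26a1 and Col6a5 with 3 each, and Col6a4 with 1. The rule used summed counts only, not a difference between groups. By class the 40 members were 8 fibrillar chains, 7 cartilage chains, 9 chains of the basement membrane zone, 5 FACIT chains, 4 transmembrane chains, and 7 beaded filament, short chain or other chains.

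All mice were C57BL/6, aged 10 weeks, and each received 15 µg of minicircle DNA, a DNA circle without plasmid backbone, hydrodynamically into the tail vein. Mdl-1-/- mice given IL-23 minicircle, wild-type mice given IL-23 minicircle and wild-type mice given minicircle for green fluorescent protein (GFP) each gave 3 ear libraries of 3' tag RNA-Seq, a method that reads transcripts near their 3' end. No Mdl-1-/- group with GFP was analysed here, so a genotype difference present before IL-23 and a different answer to IL-23 cannot be told apart. Separate animals are not stated for the 3 libraries of a group, so p-values measure only how far these libraries spread, which may be technical.

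Libraries held 3776188 to 5605713 counts. Ear skin markers were present in all libraries, with summed counts per 1000000 (CPM) of 11 basal keratinocyte markers between 8194 and 13690. The transcript of Mdl-1, Clec5a, was still read in the libraries labelled Mdl-1-/-, with 10, 13 and 5 counts, against 17, 21 and 11 counts in wild-type IL-23 and 2, 7 and 10 counts in wild-type GFP. The labels do not say which part of the gene was deleted, so these 3' tags check nothing about the genotype labels. Collagen transcripts summed to 1126, 655 and 539 CPM in the Mdl-1-/- IL-23 libraries, 1233, 599 and 781 CPM with IL-23 in wild type, and 1347, 1341 and 1949 CPM with GFP. Replicate 1 stood above the other libraries in both IL-23 groups, and replicate 3 did so in the GFP group. Mitochondrial genes took 11.4% to 12.9% of counts in Mdl-1-/- IL-23 libraries, 8.69% to 8.99% in wild-type IL-23 libraries and 12.6% to 15.1% in GFP libraries. This share separated the wild-type groups without overlap, as did many collagen genes, and its part in the collagen values was not tested.

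Collagens are built from chains that wind round each other in a helix, and chains of several genes often share a trimer. Fibrillar collagens give dermis its tensile strength, FACIT chains sit on the surface of fibrils, and network-forming chains of type IV make the sheet of the basement membrane. Transmembrane chains such as that of Col17a1 anchor basal keratinocytes, and cartilage chains form the fibrils of the elastic plate of the ear. In bulk tissue, fewer cells of a type and less RNA per cell cannot be told apart, and this holds for every difference given here.

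With IL-23 in wild-type ear, 17 of 32 tested collagen genes fell and none rose, where 21.7% of all tested genes fell and 22.9% rose. Falls of over 4-fold were seen in Col9a1 and Col9a3 of cartilage and in Col4a6 and Col4a5 of basement membrane. Col8a1 of short chain lattices and Col17a1 of hemidesmosomes fell over 4-fold too. In ears labelled Mdl-1-/- and given IL-23, Col17a1 was 3.24-fold higher than in wild-type IL-23 ears and Col18a1 was 1.86-fold lower. The Col18a1 call was lost under several alternatives, given below. The cartilage, type VIII and type IV chains were not called between these genotypes, where 17.7% of all tested genes were called. The main dermal chains Col1a1, Col1a2 and Col3a1 were called by edgeR in no comparison of all 9 libraries, but the ratio of Col1a1 to Col1a2 counts was 2.84 to 3.75 in wild-type IL-23 libraries, above all 6 others.

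The stretches upstream of 4 genes are shown because they are the chains with the largest differences between the IL-23 genotypes or among the largest falls with IL-23, and because Col4a6 and Col4a5 are transcribed away from each other from neighbouring starts. Each stretch runs from 250 to 53 bases before the RefSeq start, on GRCm38.p6, 5′ to 3′ on the strand of the gene, and capitals mark matches to the motifs named after them. Col17a1 has chr19:47692095-47692292 (minus strand), Col8a1 chr16:57754790-57754987 (minus), Col4a5 chrX:141475169-141475366 (plus) and Col4a6 chrX:141474129-141474326 (minus).
Col17a1: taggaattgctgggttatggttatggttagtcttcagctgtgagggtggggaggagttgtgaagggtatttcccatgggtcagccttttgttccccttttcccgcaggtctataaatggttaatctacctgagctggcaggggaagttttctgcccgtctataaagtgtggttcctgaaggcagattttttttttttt
Col8a1: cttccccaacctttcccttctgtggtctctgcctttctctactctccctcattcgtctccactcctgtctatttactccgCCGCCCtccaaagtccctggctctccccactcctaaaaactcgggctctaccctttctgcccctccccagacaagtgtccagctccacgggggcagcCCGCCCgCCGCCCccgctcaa
Col4a5: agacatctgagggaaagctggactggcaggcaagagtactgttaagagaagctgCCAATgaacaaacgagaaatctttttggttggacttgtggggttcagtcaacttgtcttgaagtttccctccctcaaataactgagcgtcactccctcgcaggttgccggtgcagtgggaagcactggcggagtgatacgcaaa
Col4a6: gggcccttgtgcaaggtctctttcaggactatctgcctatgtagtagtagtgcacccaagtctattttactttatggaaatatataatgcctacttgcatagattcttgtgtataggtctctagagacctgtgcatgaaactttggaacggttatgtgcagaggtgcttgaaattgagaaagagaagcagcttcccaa
The motifs searched on both strands were CCAAT, the core box of many promoters; GGGCGG, the GC box; TGANTCA, the AP-1 core; and TTCNNNGAA, the core of STAT sites, where STAT3 acts downstream of the IL-23 receptor. Of these stretches Col8a1 holds 3 GC boxes in the minus orientation and Col4a5 holds 1 CCAAT, and no other match was found in the windows shown. The set of RefSeq promoter windows used here held 32 of the 40 members. Each member was counted by its first window only, whereas every window in the set was counted for the share of all windows. Among those, 15 (46.9%) held GGGCGG and 9 (28.1%) held CCAAT, while 24.3% and 28.1% of all 32851 promoter windows of the same length did. TGANTCA stood in 1 member window (3.12%) against 5.5% of all windows, and TTCNNNGAA in 1 (3.12%) against 5.72%. A match describes letters only.

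Which collagen transcripts differ with IL-23 was asked by setting wild-type IL-23 ears against wild-type GFP ears. Of the 40 members, 32 had enough counts to be tested, and the other 8 (Col20a1, Col22a1, Col24a1, Col25a1, Col28a1, Col2a1, Col13a1 and Col6a6) had 10 to 55 counts in all and are accounted for by level only. A gene was called at a Benjamini-Hochberg adjusted p under 0.05 in edgeR's quasi-likelihood test over 13807 genes. In this comparison 44.7% of all tested genes were called, 21.7% lower and 22.9% higher. Of the 32 collagen genes 17 were called lower (53.1%) and 0 higher. CPM of the 2 groups did not overlap for 19 of the 32 that were lower and 1 that was higher. Over all tested genes 27.4% were lower and 27.3% higher without overlap. At an unadjusted p under 0.05, edgeR had 1 higher and 19 lower, while DESeq2 called 0 higher and 16 lower and limma voom 0 higher and 17 lower. The median log2 fold change was -1.09 over the 32 genes and -0.04 over all tested genes, and 27 of the 32 lay below 0. With upper-quartile scaling the median of all genes shifted by -0.15 and the share of higher genes among all calls was 38.9% instead of 51.3%, yet no collagen gene changed direction and 18 were called lower. Without replicate 1 of both IL-23 groups, an alternative chosen after seeing the data, 19 were called lower. A low gene could enter the test through the counts of a single group, so these counts describe the 32 tested genes and not all members.

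**Figure D1:**
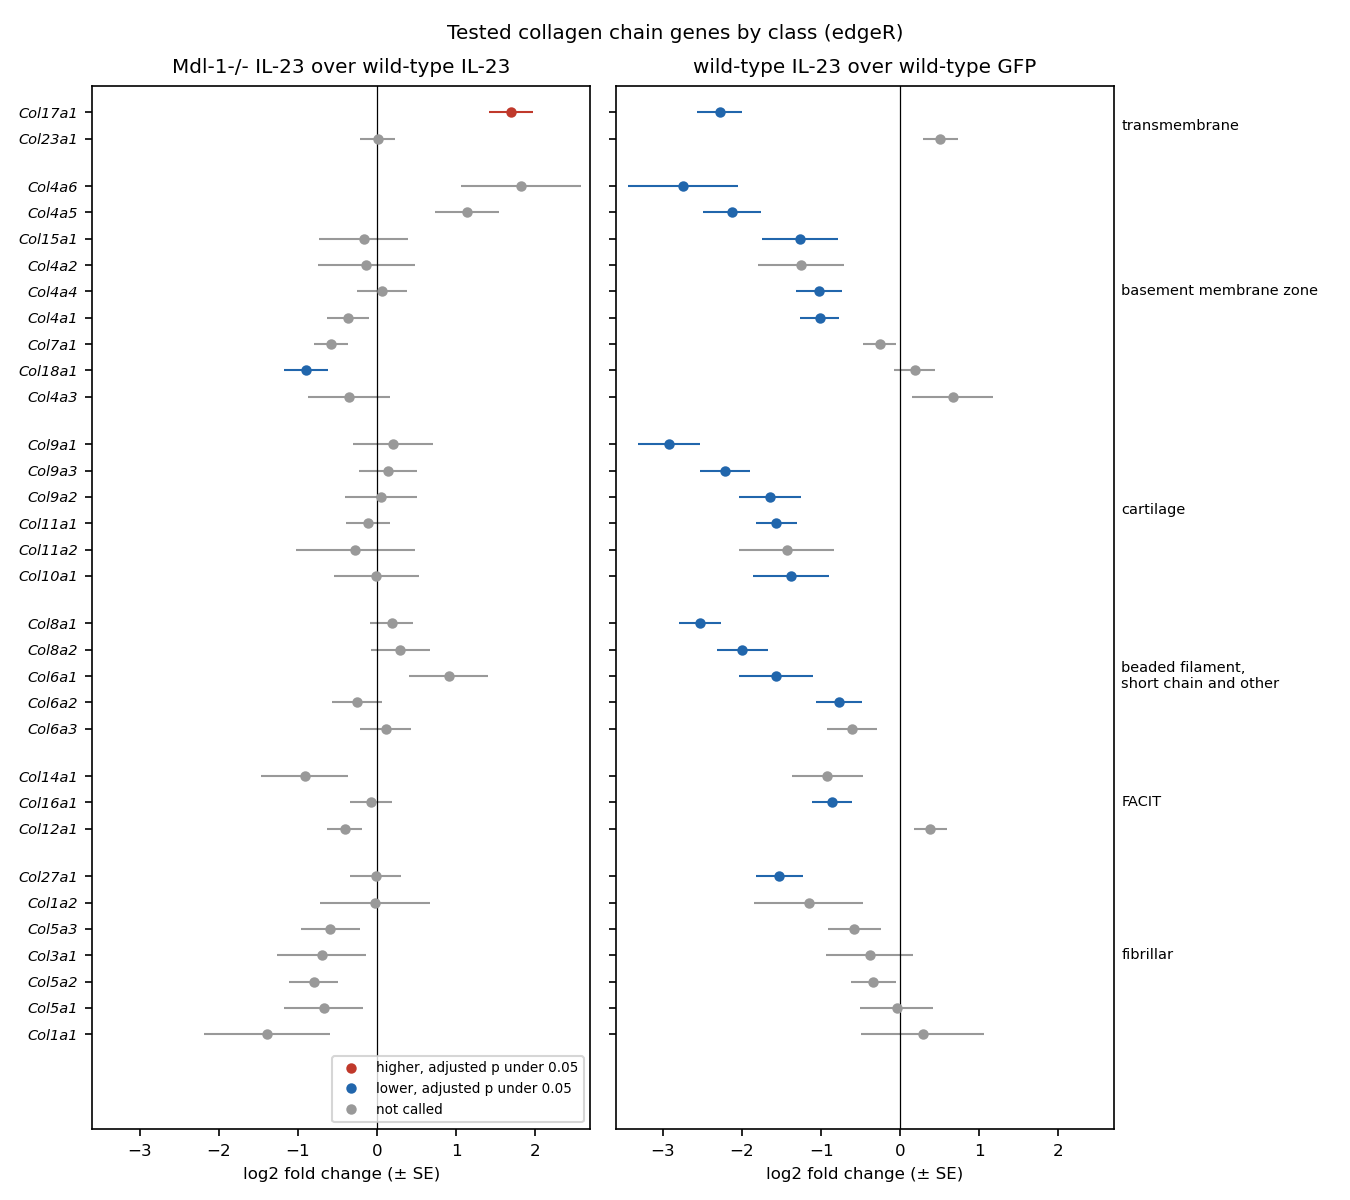
Log2 fold change ± SE of the 32 tested collagen genes, grouped by class from top to bottom, for Mdl-1-/- IL-23 over wild-type IL-23 (left panel) and wild-type IL-23 over wild-type GFP (right panel). Colours mark edgeR calls at adjusted p under 0.05; 17 genes are lower on the right, while on the left Col17a1 alone is higher and Col18a1 alone is lower.

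Col17a1 encodes the transmembrane collagen of hemidesmosomes (chromosome 19, 47646344 to 47692094 on GRCm38, minus strand). It had 120, 55.6 and 49.6 CPM in wild-type IL-23 ears, against 365, 341 and 396 CPM in wild-type GFP ears. All 3 IL-23 libraries lay far below all GFP libraries. The log2 fold change was -2.28 (SE 0.28), 4.87-fold lower (edgeR adjusted p 0.000101). Col23a1, another transmembrane chain, had 13.5, 12.9 and 10.2 CPM in wild-type IL-23 ears, against 8.70, 8.45 and 8.82 CPM in GFP ears. Its IL-23 values were the higher ones without overlap, but at log2 0.51 (SE 0.22) it missed the threshold (edgeR adjusted p 0.0738). The remaining transmembrane chains, Col13a1 and Col25a1, stayed at or under 1.75 CPM in every library.

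Among 9 chains of the basement membrane zone, all tested, 5 fell, with a class median of -1.02. Col4a5 and Col4a6, which form a trimer of skin basement membrane, lie head to head on chromosome X with 1308 bases between their annotated starts. Col4a6 had 1.60, 0.876 and 0 CPM in wild-type IL-23 ears (7, 4 and 0 counts), against 5.05, 6.79 and 6.81 CPM in GFP ears. The groups did not overlap. Its log2 fold change was -2.75 (SE 0.70, edgeR adjusted p 0.00624), and -3.51 without wild-type IL-23 replicate 1 (adjusted p 0.00842). Col4a5 had 2.52, 1.31 and 1.65 CPM in wild-type IL-23 ears, against 9.92, 7.53 and 6.96 CPM in GFP ears. Again every IL-23 library was below every GFP library, at 4.37-fold lower (log2 -2.13, SE 0.37, edgeR adjusted p 0.000285).

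The other type IV chains had smaller values. Col4a1, which with Col4a2 forms the most widespread type IV network, had 11.2, 12.9 and 12.6 CPM in wild-type IL-23 ears, against 24.7, 21.1 and 28.3 CPM in GFP ears. It was 2.02-fold lower without overlap (log2 -1.02, SE 0.25, edgeR adjusted p 0.00368). Its partner Col4a2 had 5.96, 2.41 and 3.64 CPM in wild-type IL-23 ears, against 8.18, 11.8 and 8.97 CPM in GFP ears. The groups of Col4a2 did not overlap either, but its value of -1.26 (SE 0.54) was not called (edgeR adjusted p 0.0794). Under 8 alternatives it was called, among them DESeq2 (adjusted p 0.0491) and leaving out Mdl-1-/- replicate 1 (0.00697). Col4a1 and Col4a2 also lie head to head, and their annotated starts overlap by 22 bases on chromosome 8.

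Col4a4 had 5.27, 4.38 and 4.30 CPM in wild-type IL-23 ears, against 8.53, 11.2 and 8.82 CPM in GFP ears, and fell 2.03-fold without overlap (log2 -1.02, SE 0.29, edgeR adjusted p 0.00979). Its head-to-head neighbour and trimer partner Col4a3, 71 bases away on chromosome 1, was measured at 1.83, 2.19 and 5.62 CPM in IL-23 ears, against 1.91, 1.47 and 2.32 CPM in GFP ears. The groups of Col4a3 overlapped and it was not called (log2 0.67, SE 0.51, edgeR adjusted p 0.305). Col15a1, which links basement membranes to fibrils beneath them, had 1.60, 2.41 and 0.661 CPM in IL-23 ears, against 3.13, 3.49 and 5.26 CPM in GFP ears. The call of Col15a1 (log2 -1.27, SE 0.48, edgeR adjusted p 0.0414) was lost without any 1 of the 3 GFP replicates (adjusted p 0.0532, 0.0541 and 0.179), without wild-type IL-23 replicate 1 (0.0958) or replicate 3 (0.142), and in DESeq2 (0.0682). Col7a1, the chain of anchoring fibrils, had 26.4, 28.2 and 19.2 CPM in IL-23 ears, against 27.8, 33.4 and 27.8 CPM in GFP ears, and its groups overlapped. Neither Col7a1 (log2 -0.26, edgeR adjusted p 0.318) nor Col18a1, the source of endostatin (log2 0.19, adjusted p 0.581), was called.

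Of the 7 cartilage chains 6 were tested and 5 fell, with a class median of -1.61. Summed CPM of the class was 22.8 ± 5.89 in wild-type IL-23 ears, against 78.3 ± 15.5 in wild-type GFP ears (SD, n = 3 each). Type IX chains, which coat cartilage fibrils, fell together. Col9a1 had 0.688, 2.19 and 0.992 CPM in wild-type IL-23 ears, against 12, 8.08 and 10.5 CPM in GFP ears. Its groups stood well apart, at 7.56-fold lower (log2 -2.92, SE 0.39, edgeR adjusted p 3.23e-05), and 12.1-fold lower without wild-type IL-23 replicate 2 (adjusted p 7.45e-05). Col9a3 had 4.58, 3.06 and 2.65 CPM in wild-type IL-23 ears, against 18.3, 11.8 and 18.7 CPM in GFP ears. There was no overlap and the fall was 4.64-fold (log2 -2.21, SE 0.31, edgeR adjusted p 5.13e-05). Col9a2 had 1.38, 3.06 and 1.65 CPM in wild-type IL-23 ears, against 7.13, 7.34 and 5.26 CPM in GFP ears. All 3 IL-23 values of Col9a2 were the lower ones (log2 -1.65, SE 0.39, edgeR adjusted p 0.00299).

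Col11a1, whose chain sets the width of cartilage fibrils, had 15.8, 8.76 and 7.61 CPM in wild-type IL-23 ears, against 30.3, 28.5 and 37.9 CPM in GFP ears. It fell 2.96-fold without overlap (log2 -1.57, SE 0.26, edgeR adjusted p 0.000164). Its partner Col11a2 stayed at or under 2.78 CPM, and its IL-23 values were all below its GFP values, but it was not called (log2 -1.44, SE 0.60, edgeR adjusted p 0.0631). Col11a2 was called with upper-quartile scaling (0.0405), with only these 2 groups in the fit (0.0447), without wild-type IL-23 replicate 1 (0.0474), and without replicate 1 of both IL-23 groups (0.0493). Col10a1, the chain of hypertrophic cartilage, had 2.75, 4.82 and 2.65 CPM in wild-type IL-23 ears, against 4.70, 5.14 and 17.0 CPM in GFP ears, and its groups overlapped. Its call (log2 -1.38, SE 0.48, edgeR adjusted p 0.0311) was lost without GFP replicate 3 (log2 -0.50, adjusted p 0.344), without wild-type IL-23 replicate 1 (0.110) or replicate 3 (0.102), in limma voom (0.0940) and with only these 2 groups in the fit (0.0587). Exons of Col10a1 overlap those of Nt5dc1 on the other strand, which had 1071 counts in all against 252 for Col10a1, and the strand setting of the counting is not given in the sources used here. Col2a1, the main chain of hyaline cartilage, was too low to be tested at 0.331 to 3.25 CPM.

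Chondrocyte markers moved with the cartilage chains. Of 12 markers 7 were tested and all 7 fell in wild-type IL-23 ears, among them Cnmd (log2 -2.77, edgeR adjusted p 6.92e-05), Acan (-2.66, 0.000422) and Hapln1 (-2.25, 0.000605). Of all tested genes 21.7% fell in this comparison. The summed level of the chondrocyte markers was 253 to 415 CPM in wild-type IL-23 libraries, against 822 to 951 CPM in wild-type GFP libraries. Cytl1 (487 to 604 CPM) and Sox9 (238 to 275 CPM) made most of the GFP sum. Matn1 and Epyc were at 0 in all libraries. Adipocyte markers (7 of 7 tested lower) and Schwann cell markers (7 of 8 lower, 1 higher) fell in the same comparison, and the part of cell content in the collagen values was not tested.

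In the class of beaded filament, short chain and other collagens, 5 of 7 members were tested and 4 fell, with a class median of -1.57. Col8a1, a short chain that forms hexagonal lattices, had 27.3, 19.1 and 14.2 CPM in wild-type IL-23 ears, against 113, 95.7 and 145 CPM in GFP ears. All IL-23 libraries were far below all GFP libraries. The fall was 5.78-fold (log2 -2.53, SE 0.27, edgeR adjusted p 1.36e-05). Its relative Col8a2 had 3.44, 3.06 and 1.65 CPM in IL-23 ears, against 9.92, 10.7 and 13.2 CPM in GFP ears, again without overlap. Col8a2 was 3.99-fold lower (log2 -2.00, SE 0.33, edgeR adjusted p 0.000174).

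Type VI chains form beaded microfilaments around cells. Col6a1 had 4.35, 2.19 and 1.32 CPM in wild-type IL-23 ears, against 7.48, 5.88 and 10.8 CPM in GFP ears. The groups did not overlap and it fell 2.96-fold (log2 -1.57, SE 0.47, edgeR adjusted p 0.0134), a call lost without GFP replicate 3 (0.0649), wild-type IL-23 replicate 2 (0.0649) or replicate 3 (0.0545). Col6a2 had 14.7, 9.41 and 6.28 CPM in IL-23 ears, against 17.9, 15.4 and 19.3 CPM in GFP ears, without overlap. Its call (log2 -0.77, SE 0.29, edgeR adjusted p 0.0416) was lost without GFP replicate 1 (0.0952) or 3 (0.126), wild-type IL-23 replicate 2 (0.132) or 3 (0.162) or Mdl-1-/- replicate 2 (0.0528), and in DESeq2 (0.0503). Col6a3 overlapped between groups and was not called (log2 -0.61, SE 0.31, edgeR adjusted p 0.138), but was called under 5 alternatives: no filter on counts (0.00405), the replicate block (0.0151), only these 2 groups in the fit (0.0220), without Mdl-1-/- replicate 1 (0.0167), and without replicate 1 of both IL-23 groups (0.00696). Col6a6 and Col28a1 were too low to test.

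Of the 5 FACIT chains 3 were tested. Col16a1, found near fibrillin microfibrils in skin, had 36.9, 28.0 and 22.5 CPM in wild-type IL-23 ears, against 44.2, 67.0 and 48.9 CPM in GFP ears. It fell without overlap (log2 -0.86, SE 0.26, edgeR adjusted p 0.0150), and the call was lost without GFP replicate 2 (0.0625), wild-type IL-23 replicate 2 (0.0596) or replicate 3 (0.0636). Col12a1 and Col14a1, which decorate dermal fibrils, were not called, at log2 0.38 (SE 0.21, edgeR adjusted p 0.151) and -0.92 (SE 0.45, 0.105). Col20a1 and Col22a1 had 0 counts in some libraries and at most 1.55 CPM.

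Fibrillar chains spread widely between libraries of a group. Of 8 members 7 were tested and 1 fell, with a class median of -0.39. The call was Col27a1, a fibrillar chain also made by cartilage, with 16.5, 20.1 and 9.59 CPM in wild-type IL-23 ears, against 45.8, 32.9 and 57.2 CPM in GFP ears. It was 2.89-fold lower without overlap (log2 -1.53, SE 0.30, edgeR adjusted p 0.00123). Col1a1 had 538, 170 and 263 CPM in wild-type IL-23 ears, against 162, 251 and 384 CPM in GFP ears, and these values overlapped. Its log2 fold change of 0.28 had an SE of 0.77 (edgeR adjusted p 0.796) and turned negative without wild-type IL-23 replicate 1. Col1a2, which gives the other chain of type I collagen, had 144, 56.0 and 92.6 CPM in wild-type IL-23 ears, against 172, 149 and 330 CPM in GFP ears. Every IL-23 value of Col1a2 was below every GFP value, yet the fit did not call it (log2 -1.16, SE 0.69, edgeR adjusted p 0.220), whereas without replicate 1 of both IL-23 groups it was called (log2 -1.55, adjusted p 0.0442).

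Col3a1, the chain of the thin fibrils of young dermis, had 108, 61.1 and 138 CPM in wild-type IL-23 ears, against 109, 95.5 and 195 CPM in GFP ears, with overlap (log2 -0.39, SE 0.55, edgeR adjusted p 0.609). The type V chains, which start type I fibrils, were not called in this comparison. Col5a1 had 14.4, 5.69 and 6.61 CPM in wild-type IL-23 ears, against 7.83, 7.34 and 12.5 CPM in GFP ears. Col5a2 had 12.6, 7.22 and 9.92 CPM in IL-23 ears, against 11.5, 9.18 and 16.7 CPM in GFP ears. Both overlapped between groups, as did Col5a3 (log2 -0.58, SE 0.34, edgeR adjusted p 0.171). Fibroblast markers summed to 210 to 225 CPM in wild-type IL-23 libraries, against 344 to 403 CPM in GFP libraries. Most of this sum came from Dcn, which fell, with means of 82.0 and 226 CPM in these groups, and Thy1, which rose, with 76.9 and 48.8 CPM. Of 12 fibroblast markers 9 were tested. Of these 5 fell, among them Pdgfra (log2 -1.97, edgeR adjusted p 0.0102) and Dpt (-1.88, 0.000101), and 2 rose, among them Fbln1 (1.61, 0.000550). Their part in the collagen values was not tested, and the highest wild-type IL-23 library for Col1a1 had a fibroblast sum of 213 CPM, between those of the others.

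**Figure D2:**
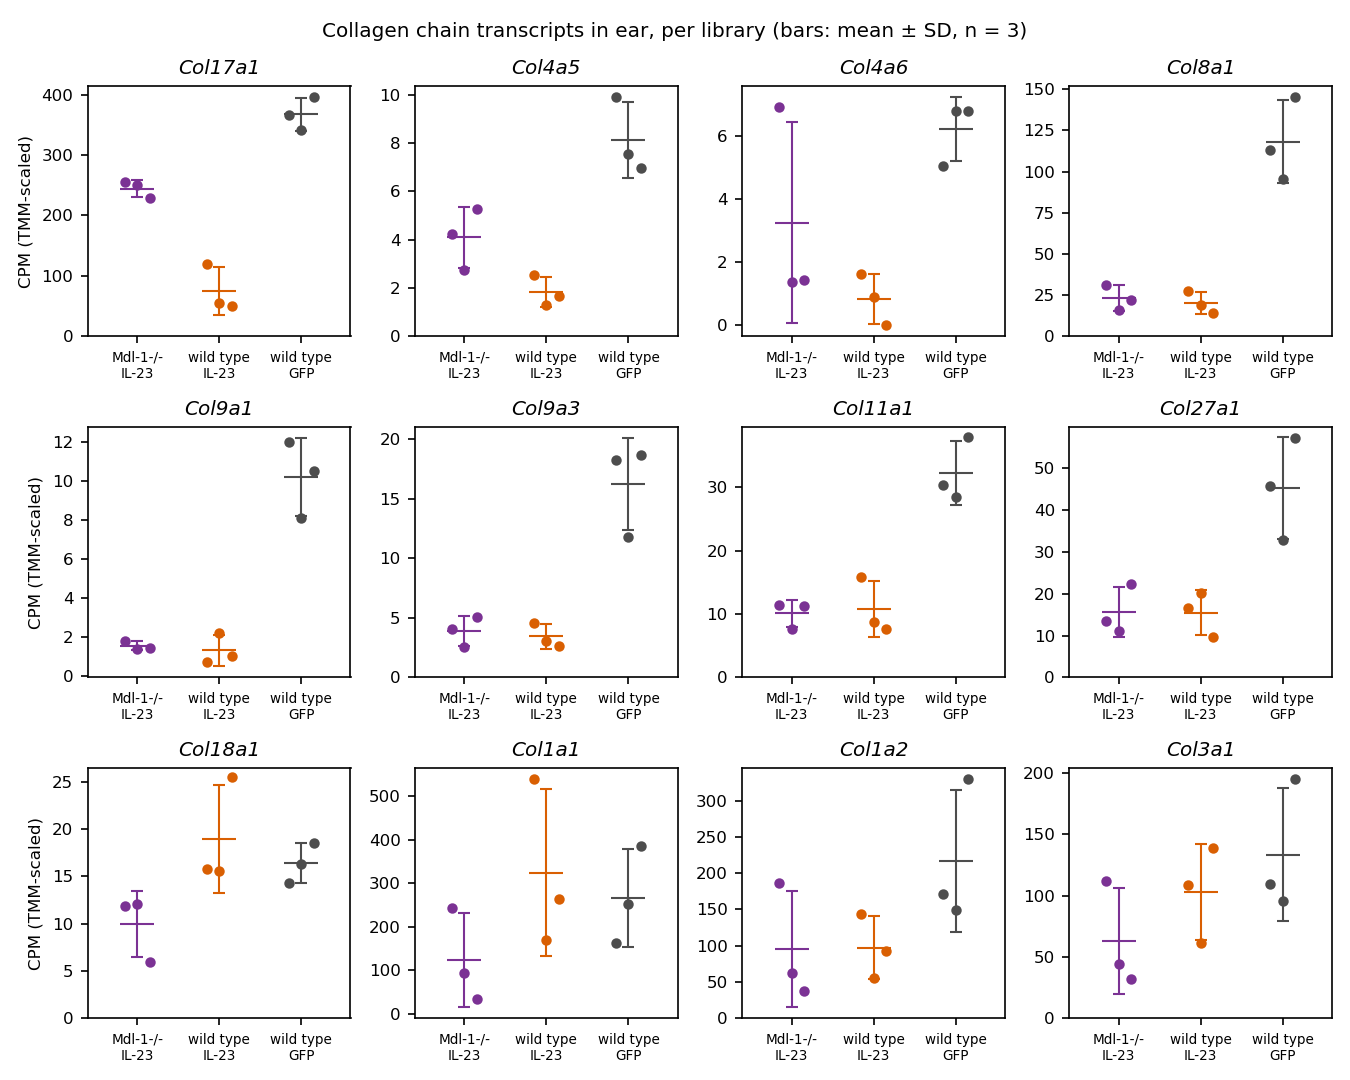
CPM of 12 collagen genes in each library (dots) with the group mean ± SD (bars, n = 3), in the order Mdl-1-/- IL-23, wild-type IL-23 and wild-type GFP. Col17a1 in Mdl-1-/- IL-23 ears lies between the wild-type groups at 228 to 255 CPM, Col8a1, Col9a1, Col9a3, Col11a1 and Col27a1 overlap between the IL-23 groups and are higher in GFP ears, and Col1a1, Col1a2 and Col3a1 spread widely within groups.

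Ears labelled Mdl-1-/- were set against wild-type ears, both with IL-23, to ask which collagen transcripts depend on genotype. Of 32 tested collagen genes 1 was higher and 1 lower, where 17.7% of all tested genes were called, 7.58% higher and 10.1% lower. The median log2 fold change was -0.10 over the 32 genes, and 0.00 over all tested genes. Groups did not overlap for 2 collagen genes that were higher and 3 that were lower, beside 17.2% and 19.2% of all tested genes. At an unadjusted p under 0.05 edgeR had 3 higher and 3 lower, and DESeq2 and limma voom each called 1 higher and 1 lower. Among all tested genes the share of higher genes among calls was 42.9%, or 53.2% with upper-quartile scaling. The groups share the wild-type IL-23 libraries with the comparison above, so a high or low value there moves both.

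Col17a1 had 255, 250 and 228 CPM in the libraries labelled Mdl-1-/-, against 120, 55.6 and 49.6 CPM in wild-type IL-23 libraries. The Mdl-1-/- values lay close together and all above the wild-type ones. The log2 fold change was 1.69 (SE 0.28), 3.24-fold higher (edgeR adjusted p 0.00365), and no alternative tried ended this call. Counts of Col17a1 were 22.6%, 38.2% and 42.4% of all collagen counts in Mdl-1-/- IL-23 libraries, 9.74%, 9.28% and 6.35% in wild-type IL-23 ears, and 27.1%, 25.5% and 20.3% in GFP libraries. Among 11 basal keratinocyte markers, Dst, whose protein binds the Col17a1 chain in hemidesmosomes, was higher in Mdl-1-/- ears (log2 0.92, edgeR adjusted p 0.0365), Krt14 was lower (-0.69, 0.0175) and 9 were not called. In wild-type IL-23 ears against GFP ears, Dst (-1.82, edgeR adjusted p 0.000355) was among 4 of these markers that fell, with Krt15 (-3.53, 0.00114), and Krt14 (1.23, 0.000102) was among 2 that rose. The marker sum ran from 8194 to 11090 CPM in Mdl-1-/- IL-23 libraries, 11010 to 13690 CPM in wild-type IL-23 libraries and 10030 to 12510 CPM in GFP libraries. Krt14 was its largest part, with means of 5905, 9531 and 4069 CPM in these groups, in that order. No marker was at 0 in all libraries.

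Col18a1 (chromosome 10, 77052178 to 77166548, minus strand), a basement membrane collagen of epithelium and vessels, had 11.8, 12.1 and 5.99 CPM in the libraries labelled Mdl-1-/-, against 15.8, 15.5 and 25.5 CPM in wild-type IL-23 libraries. The groups did not overlap. The log2 fold change was -0.90 (SE 0.28, edgeR adjusted p 0.0347), a call lost without wild-type IL-23 replicate 2 (0.0580) or 3 (0.161), without Mdl-1-/- replicate 1 (0.0519) or 3 (0.142), and with only these 2 groups in the fit (0.0516). The summed level of 11 endothelial markers was 30.7 to 41.4 CPM in Mdl-1-/- IL-23 libraries and 33.2 to 66.1 CPM in wild-type IL-23 libraries; 6 were tested and 1, Egfl7, was lower (log2 -1.85, edgeR adjusted p 0.00988). Their part in the Col18a1 value was not tested.

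Col4a5 had 4.25, 2.75 and 5.27 CPM in Mdl-1-/- libraries, against 2.52, 1.31 and 1.65 CPM in wild-type IL-23 libraries. All 3 Mdl-1-/- values were the higher ones, but the gene missed the threshold (log2 1.14, SE 0.41, edgeR adjusted p 0.0610) and passed it without wild-type IL-23 replicate 1 (0.0459) or Mdl-1-/- replicate 2 (0.0381). Col4a6 had 6.93, 1.37 and 1.44 CPM in Mdl-1-/- libraries, against 1.60, 0.876 and 0 CPM in wild-type IL-23 libraries. A single library set its mean, the groups overlapped, and it was not called (log2 1.83, SE 0.76, edgeR adjusted p 0.112) except with no filter on counts (0.0111). Col7a1 had 21, 16 and 12.5 CPM in Mdl-1-/- libraries, against 26.4, 28.2 and 19.2 CPM in wild-type IL-23 libraries, with overlap (log2 -0.58, SE 0.22, edgeR adjusted p 0.0702). Without Mdl-1-/- replicate 1 the adjusted p of Col7a1 was 0.0438.

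Cartilage and type VIII chains showed no called difference between the genotypes. Summed cartilage collagen was 22.5 ± 4.88 CPM in Mdl-1-/- IL-23 ears and 22.8 ± 5.89 CPM in wild-type IL-23 ears (SD, n = 3 each). Of 6 cartilage chains tested 0 were called by edgeR, DESeq2 or limma voom, and 0 had an unadjusted p under 0.05. Their log2 fold changes ran from -0.27 for Col11a2 (SE 0.76) to 0.21 for Col9a1 (SE 0.50), each smaller than its SE, which does not show that the levels were equal. Col8a1 had 31.3, 16 and 22.3 CPM in Mdl-1-/- libraries (log2 0.18, SE 0.28, edgeR adjusted p 0.689) and Col8a2 had 4.70, 2.52 and 3.12 CPM (0.30, SE 0.38, 0.624). Chondrocyte markers summed to 431 to 618 CPM in Mdl-1-/- libraries and 253 to 415 CPM in wild-type IL-23 ears, and Matn1 and Epyc were at 0. Of 7 tested, edgeR called 0 between the genotypes and 4 were higher in Mdl-1-/- ears at an unadjusted p under 0.05; DESeq2 called 1 higher and limma voom 0.

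All 7 fibrillar chains tested had log2 fold changes below 0 in Mdl-1-/- against wild-type IL-23 ears, and edgeR, DESeq2 and limma voom called 0 of them. At an unadjusted p under 0.05 edgeR had 1 lower, and Col1a2 and Col27a1 changed sign with upper-quartile scaling. Col1a1 had 244, 93.3 and 34.0 CPM in Mdl-1-/- libraries, against 538, 170 and 263 CPM in wild-type IL-23 libraries, with overlap (log2 -1.39, SE 0.80, edgeR adjusted p 0.282). Col1a2 had 187, 62.4 and 37.4 CPM in Mdl-1-/- libraries, against 144, 56.0 and 92.6 CPM in wild-type IL-23 libraries (log2 -0.02, SE 0.69, edgeR adjusted p 0.987), with overlap. In Mdl-1-/- replicate 1, the highest of its group for both genes, fibroblast markers summed to 353 CPM, against 198 and 215 CPM in the other Mdl-1-/- libraries. Dcn alone gave 214 CPM of the sum in replicate 1, against 82.8 and 115 CPM in the others. The part of fibroblast content in the Col1a1 and Col1a2 values was not tested. Col5a2 had 6.93, 4.80 and 5.27 CPM in Mdl-1-/- libraries, against 12.6, 7.22 and 9.92 CPM in wild-type IL-23 libraries, without overlap (log2 -0.80, SE 0.31, edgeR adjusted p 0.0824). Col5a1, at 9.39, 5.49 and 1.92 CPM in Mdl-1-/- libraries, overlapped (log2 -0.67, SE 0.50, edgeR adjusted p 0.379).

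**Figure D3:**
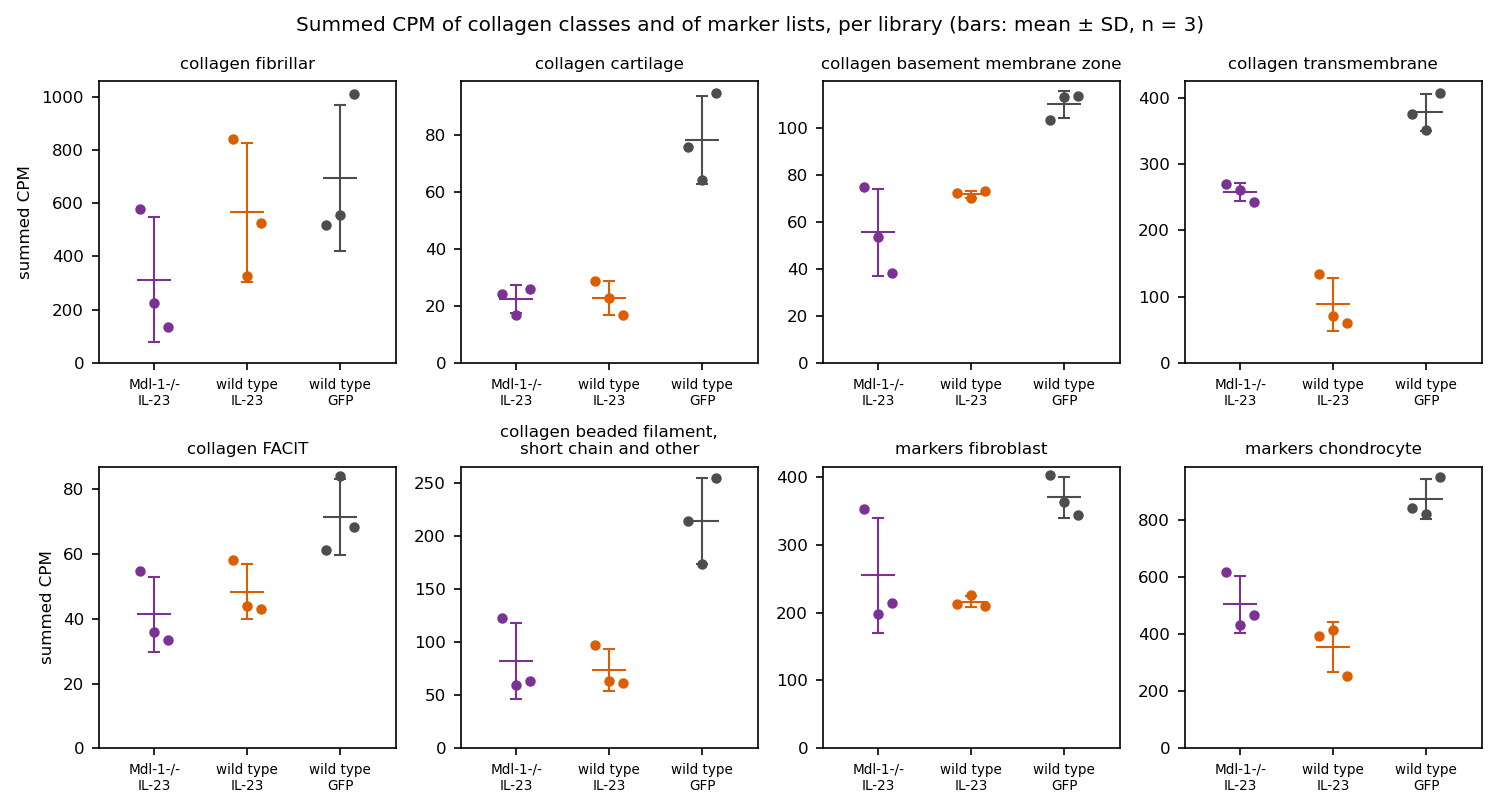
Summed CPM of each collagen class and of the fibroblast and chondrocyte markers in each library (dots), with the group mean ± SD (bars, n = 3). Cartilage collagen is at 22.5 CPM in Mdl-1-/- IL-23, 22.8 CPM in wild-type IL-23 and 78.3 CPM in GFP ears. Transmembrane collagen is 258 CPM in Mdl-1-/- IL-23, 88.9 CPM in wild-type IL-23 and 378 CPM in GFP ears. Col17a1 makes most of the transmembrane sum, with means of 244, 75.1 and 368 CPM in these groups, in that order. Fibrillar collagen overlaps among all groups.

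Chains that share a trimer were compared as ratios of counts within each library, which library scaling cannot change. Ratios say nothing of protein, and only their differences between groups were compared. The ratio of Col1a1 to Col1a2 was 1.30, 1.5 and 0.910 in Mdl-1-/- IL-23 libraries, 3.75, 3.02 and 2.84 in wild-type IL-23 ears, and 0.940, 1.69 and 1.17 in wild-type GFP libraries. Wild-type IL-23 libraries were above all others, while the other groups overlapped. The log2 ratio averaged 1.67 ± 0.21 in wild-type IL-23 ears and 0.30 ± 0.43 in GFP ears (SD, n = 3), a difference of 1.37. It averaged 0.27 ± 0.37 in Mdl-1-/- IL-23 ears, a difference of -1.39 from wild-type IL-23. Both differences had an exact two-sided permutation p of 0.1, the smallest that 3 against 3 libraries allow, and 0.3 after Benjamini-Hochberg adjustment over 18 ratio tests. Mdl-1-/- IL-23 and GFP ears differed by -0.02 (exact permutation p 0.9). With 1 library left out, the first of these differences ran from 1.18 to 1.60 and the other from -1.55 to -1.19. Col1a1 made up 21.6%, 14.3% and 6.32% of all collagen counts in Mdl-1-/- IL-23 libraries, 43.6%, 28.3% and 33.7% in wild-type IL-23 ears, and 12%, 18.7% and 19.7% in GFP libraries.

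Col6a1 to Col6a2 ratios were 0.755, 0.405 and 0.522 in Mdl-1-/- IL-23 libraries, 0.297, 0.233 and 0.211 in wild-type IL-23 ears, and 0.418, 0.381 and 0.560 in GFP libraries. Here wild-type IL-23 libraries were below all others, with only 19, 10 and 4 counts of Col6a1. The log2 ratio in wild-type IL-23 ears differed by -0.81 from GFP ears, and that in Mdl-1-/- IL-23 ears by 1.10 from wild-type IL-23 ears (exact permutation p 0.1 each, 0.3 adjusted). Col9a1 to Col9a2 ratios were 0.800, 1.0 and 0.5 in Mdl-1-/- IL-23 libraries, 0.5, 0.714 and 0.600 in wild-type IL-23 ears, and 1.68, 1.10 and 2.0 in GFP libraries. Both IL-23 groups were below GFP, by a log2 difference of -1.04 for Mdl-1-/- IL-23 and -1.29 for wild-type IL-23 (exact permutation p 0.1 each, 0.3 adjusted), and they overlapped with each other. These ratios rest on few counts. Col9a1 had 8, 6 and 6 counts in Mdl-1-/- IL-23 and 3, 10 and 3 in wild-type IL-23 libraries. Col9a2 had 10, 6 and 12 counts in Mdl-1-/- IL-23 and 6, 14 and 5 in wild-type IL-23 libraries. The ratios of Col4a1 to Col4a2, Col5a1 to Col5a2 and Col9a2 to Col9a3 overlapped in all 3 comparisons. No ratio test could reach 0.05 in this design.

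**Figure D4:**
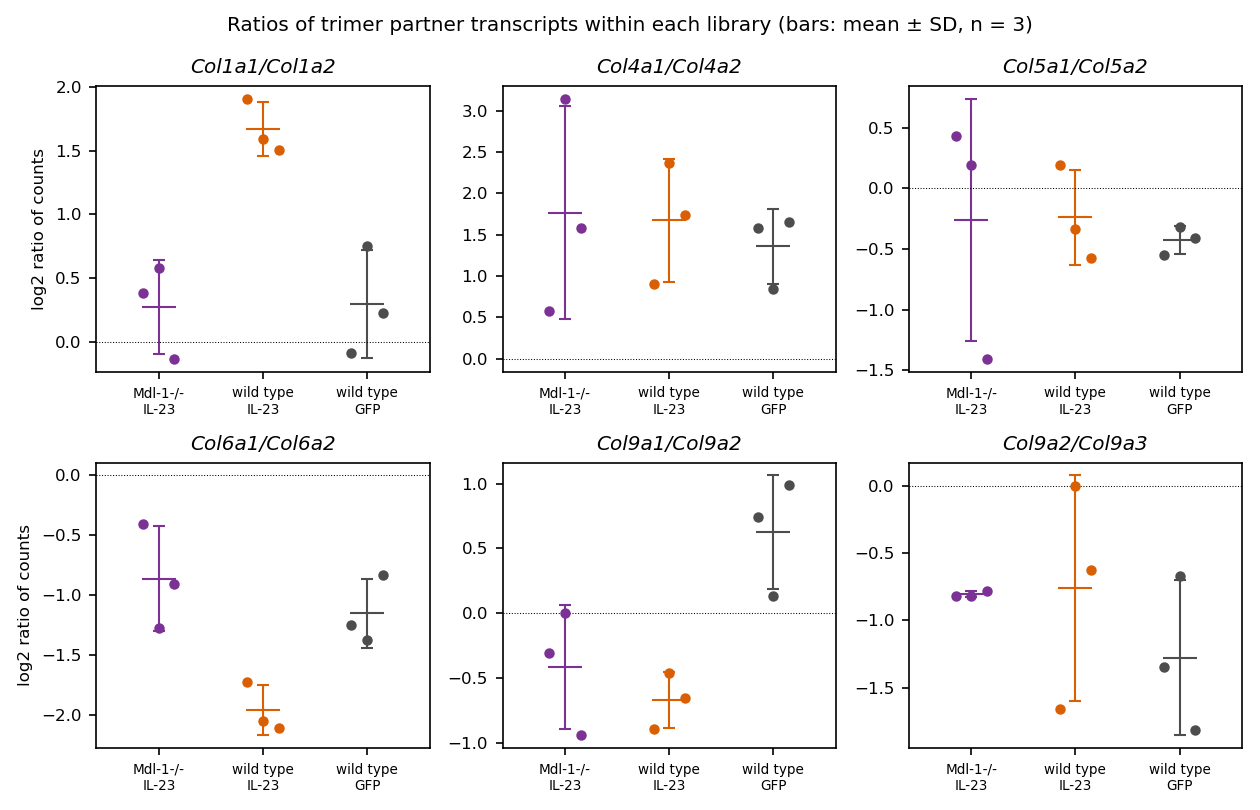
Log2 ratio of counts of trimer partner genes in each library (dots), with the group mean ± SD (bars, n = 3) and a dotted line at equal counts. The Col1a1/Col1a2 ratio is higher in the 3 wild-type IL-23 libraries than in the other 6, the Col6a1/Col6a2 ratio is lower there, and Col9a1/Col9a2 is lower in both IL-23 groups than in GFP ears.

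Mdl-1-/- IL-23 ears were also set against wild-type GFP ears, which differ in genotype and in DNA, so these cannot be told apart. Here 16 of 32 tested collagen genes were lower (50.0%) and 0 higher, where 17.1% of all tested genes were called, 6.93% lower and 10.2% higher. Without overlap of the groups, 22 collagen genes were lower and 1 higher, beside 17.9% of all tested genes in each direction. At an unadjusted p under 0.05 edgeR had 1 higher and 22 lower, DESeq2 called 0 higher and 16 lower, and limma voom 0 higher and 19 lower. The number of lower calls was 9 without GFP replicate 3, 7 without Mdl-1-/- replicate 2, 9 without Mdl-1-/- replicate 3, and 23 without replicate 1 of both IL-23 groups. Limma voom also called Col1a2 (log2 -1.42, adjusted p 0.0462) and Col3a1 (-1.22, 0.0452) lower here. Without Mdl-1-/- replicate 1 edgeR called both (Col1a2 -2.11, adjusted p 0.0489; Col3a1 -1.80, 0.0332). The share of higher genes among all calls was 59.4%, or 43.7% with upper-quartile scaling, and no collagen gene changed direction with that scaling.

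By class, 4 of 6 cartilage, 4 of 9 basement membrane zone, 3 of 7 fibrillar, 3 of 5 beaded filament or short chain and 2 of 3 FACIT chains were lower, and 0 of 2 transmembrane chains. Col17a1 had 255, 250 and 228 CPM in Mdl-1-/- IL-23 ears, against 365, 341 and 396 CPM in GFP ears. These groups did not overlap, at 1.5-fold lower, but edgeR did not call the gene (log2 -0.59, SE 0.26, adjusted p 0.155). It was called with only these 2 groups in the fit (0.00802), with no filter on counts (0.00272) and without wild-type IL-23 replicate 1 (0.00533). Col8a1 was 5.08-fold lower (log2 -2.35, SE 0.26, edgeR adjusted p 9.38e-05), Col9a1 6.56-fold (-2.71, SE 0.38, 0.000176) and Col9a3 4.21-fold (-2.07, SE 0.31, 0.000293). Against the same GFP libraries, these had log2 values of -2.53, -2.92 and -2.21 in wild-type IL-23 ears.

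Chains called lower in Mdl-1-/- IL-23 but not in wild-type IL-23 ears, each against GFP, were Col14a1 (log2 -1.84, edgeR adjusted p 0.0161), Col7a1 (-0.84, 0.0114), Col5a2 (-1.14, 0.0143) and Col5a3 (-1.17, 0.0293). The values of the same genes in wild-type IL-23 against GFP ears were -0.92, -0.26, -0.34 and -0.58. The difference between the 2 IL-23 groups passed the test for none of these 4 genes, and their calls against GFP were lost without Mdl-1-/- replicate 3 (edgeR adjusted p 0.0658, 0.0635, 0.0524 and 0.118, in that order) and without Mdl-1-/- replicate 2 (0.0712, 0.0528, 0.0726 and 0.0789). The calls of Col14a1, Col5a2 and Col5a3 were lost without GFP replicate 3 too (0.117, 0.103 and 0.159).

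Enzymes that make and process collagen were counted from fixed lists. Of 19 tested genes for chain modification and folding, 3 rose and 2 fell in wild-type IL-23 against GFP ears. Over all tested genes 22.9% rose and 21.7% fell in that comparison. P4ha3, a prolyl hydroxylase subunit, rose (log2 3.56, SE 0.64, edgeR adjusted p 0.000348). It had 24, 15 and 12 counts in wild-type IL-23 ears, against only 1, 1 and 4 counts in GFP ears. P4ha3 could enter the test through its IL-23 counts, and so few GFP counts leave the size of the rise uncertain. Crtap, part of the prolyl 3-hydroxylation complex, fell (-1.17, SE 0.25, edgeR adjusted p 0.00133), as did Serpinh1, the collagen chaperone HSP47 (-1.12, SE 0.37, 0.0237). Crtap alone was called between the genotypes, higher in Mdl-1-/- IL-23 than in wild-type IL-23 ears (0.88, SE 0.25, edgeR adjusted p 0.0264). Of all tested genes 17.7% were called there. In Mdl-1-/- IL-23 against GFP ears 2 genes of the list rose and 1 fell, where 10.2% of all tested genes rose and 6.93% fell. The list median of -0.26 in wild-type IL-23 ears stood beside -0.04 over all genes.

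Of 10 tested genes for propeptide cleavage and cross-linking, 0 rose and 5 fell in wild-type IL-23 against GFP ears by edgeR. Over all tested genes 22.9% rose and 21.7% fell. At an unadjusted p under 0.05 in edgeR 0 of the list were higher, and DESeq2 and limma voom called 0 higher. Loxl4, a cross-linking lysyl oxidase, fell (log2 -2.50, SE 0.50, edgeR adjusted p 0.000929), with Pcolce2, an enhancer of propeptide cleavage (-2.45, SE 0.27, 7.76e-06), and Adamts14, an N-propeptidase (-2.11, SE 0.55, 0.00593). Between the genotypes under IL-23, Pcolce2 was higher in Mdl-1-/- ears (1.18, SE 0.28, edgeR adjusted p 0.0110) and its relative Pcolce was lower (-1.06, SE 0.34, 0.0427), Pcolce being called by neither DESeq2 nor limma voom. In Mdl-1-/- IL-23 against GFP ears 5 of these 10 genes fell, where 6.93% of all tested genes fell. Of 7 tested receptor and uptake genes, 1 rose and 4 fell in wild-type IL-23 ears, beside 22.9% and 21.7% of all tested genes. Mrc2, an uptake receptor for collagen, fell most (log2 -3.02, SE 0.56, edgeR adjusted p 0.000495). It had only 2, 1 and 3 counts in wild-type IL-23 ears, against 28, 15 and 34 counts in GFP ears, so the size of its fall is uncertain. The integrin chains Itga2 (-0.96, SE 0.26, edgeR adjusted p 0.00658) and Itga1 (-0.77, SE 0.29, 0.0375) fell as well. Between the genotypes under IL-23, edgeR, DESeq2 and limma voom called 0 of these receptors, and 2 were higher in Mdl-1-/- ears at an unadjusted p under 0.05. Ddr2, a kinase that binds fibrillar collagen, was the 1 gene of the list that rose in Mdl-1-/- IL-23 against GFP ears (0.63, SE 0.20, edgeR adjusted p 0.0350).

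In the authors' deposited table for wild-type IL-23 against GFP, 17 collagen genes had a false discovery rate under 0.05, all with negative log2 fold changes, and 15 of these were among the 17 called here. Col1a2 and Col4a2 stood in the authors' deposited table alone, and Col15a1 and Col6a2 in the calls made here alone. For the genotypes under IL-23 the authors' deposited table had 1 such gene, Col17a1, with a sign that runs wild type over Mdl-1-/-. Col18a1 stood in the calls made here alone (authors' false discovery rate 0.103). In the third comparison, Mdl-1-/- IL-23 over GFP, the authors' deposited table had 15, of which 14 were among the 16 called here. Col17a1 stood in the authors' deposited table alone (false discovery rate 0.0194), and Col4a4 and Col4a5 in the calls made here alone.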

How the data were processed

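RNA of 9 mouse ear samples was measured as 3' tag RNA-Seq in 3 groups of 3. The authors deposited tables of raw counts by Ensembl identifier, 1 table for every comparison. STAR 2.7.0a, featureCounts and edgeR were used, per the submitters' processing notes, and the build is named GRCh38.p6, a human name, while the gene identifiers are those of mouse. Not given in the sources used here: annotation release, strand and multiple-match settings. The authors deposited their own comparisons as log2 fold changes with p-values and false discovery rates, which served to count collagen genes only.

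Libraries shared by tables had identical values (0 differed), and the tables were joined. Symbols and positions came from GENCODE on GRCm38; 29 genes had no symbol. Totals were 3776188 to 5605713 counts, and a count of 0 allows up to 0.535 to 0.794 CPM, counting error only. Genes passing filterByExpr (13807) were tested in edgeR 4.0.16 (R 4.3.3) by the robust quasi-likelihood F-test with TMM scaling, 1 model with 3 group means on 9 libraries and Benjamini-Hochberg adjustment. CPM is scaled by TMM, with factors of 1.15 to 1.18 in GFP, 0.804 to 0.931 in wild-type IL-23 and 0.935 to 1.01 in Mdl-1-/- IL-23 libraries. CPM therefore differs from counts over the total, by an amount that differs between the groups. Standard errors came from the F statistic. The procedure was tested on simulated counts. Ratios of trimer partners used counts + 0.5 and exact permutation tests. DESeq2 1.42.0, limma 3.58.1, other scalings, filters and left-out libraries were alternatives.

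Per-library values are given for up to 4 called members of largest absolute log2 fold change per class with IL-23 in wild type, all called between the genotypes, the member of highest mean CPM per class, and the ratio partners; of other lists up to 3 called genes. Other members named with values (Col3a1, Col4a3, Col10a1 and Col23a1 among them) were added after their values were seen. The members and lists were chosen with earlier results of these data known. Promoter windows came from RefSeq (GRCm38.p6), cut to bases 250 to 53 before the start.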

Additional observations from a re-analysis of the deposited data

How the results depend on the processing

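No called collagen gene reversed direction under any of the alternatives run. Lower calls in wild-type IL-23 against GFP numbered 17, with 14 to 19 under other settings and 12 to 19 when 1 library was left out, and higher calls were 0 throughout. Between the genotypes with IL-23, the 1 higher call was 2 with no count filter and 1 to 2 with 1 library left out; the 1 lower call was 0 with only these 2 groups in the fit, and 0 to 1 with 1 library left out. With the replicate number as a block it was 2, Col7a1 being added (adjusted p 0.0484); the same block gave 19 lower calls in wild-type IL-23 against GFP, and 18 in Mdl-1-/- IL-23 against GFP. Correlations of same-numbered libraries ran from -0.0863 to 0.2301, and those of other pairs between groups from -0.2135 to 0.1748. The labels do not say what the number marks. With 3 libraries a group these values cannot decide whether it pairs the libraries. When Mdl-1-/- IL-23 was set against GFP, the 16 lower calls became 14 to 23 under other settings and 7 to 22 with 1 library left out; the cause was not tested. The trimer ratio differences held within the group spread with another pseudocount. Depth limits the 8 members with 10 to 55 counts, which were not tested. With 3 libraries a group, single outlying libraries were not tested.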

Other observations

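The other marker lists had these calls by edgeR. Over all tested genes, 22.9% rose and 21.7% fell in wild-type IL-23 against GFP ears, and 17.7% were called between the genotypes. In Mdl-1-/- IL-23 against GFP ears 6.93% of all tested genes were lower. Between wild-type IL-23 and GFP ears, 4 of 7 tested leukocyte markers rose, led by S100a9 (log2 6.92, adjusted p 0.000179), 3 of 8 skeletal muscle markers fell, led by Atp2a1 (-2.64, 0.00178), 2 of 6 mural and smooth muscle markers fell, and 1 of 6 endothelial markers fell. Leukocyte markers summed to 3451 ± 1891 CPM in Mdl-1-/- IL-23 ears, 9657 ± 4025 CPM in wild-type IL-23 ears and 125 ± 26.1 CPM in GFP ears (SD, n = 3 each), and S100a9 alone gave 3393, 9596 and 79.2 CPM of these means. Between the genotypes under IL-23, Csf3r was the leukocyte marker called, lower in Mdl-1-/- ears (-1.87, 0.0213), and the muscle marker Myh2 was higher (2.35, 0.00107). Mural markers Myh11 (2.11, 0.0342) and Cspg4 (1.56, 0.0300) were higher too, while the Schwann cell marker Mbp was lower (-0.90, 0.00259). Of the adipocyte markers 0 were called between the genotypes by edgeR, DESeq2 or limma voom, with 0 at an unadjusted p under 0.05, and 7 of 7 were lower in Mdl-1-/- IL-23 than in GFP ears, with 6 of 8 tested Schwann cell markers and 7 of 7 chondrocyte markers.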
